A study of Mus musculus with 8 samples.

Results

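A set of 7 genes of selectin ligand glycosylation were followed in mouse CD8+ T cells: the fucosyltransferases Fut7 and Fut4, the branching enzyme Gcnt1, the sialyltransferases St3gal4 and St3gal6, the galactosyltransferase B4galt1, and the carrier protein gene Selplg. They were chosen by symbol out of 41730 genes in the deposited count table, with the RGX-104 contrast of these same data already known. In that contrast Fut7 was higher. The differences between treatments are therefore a description for these 7 genes. No p-value is printed for them. Their calls are counted beside the share over all tested genes, and again where the processing was changed, with no conclusion drawn from them.

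Selectins are adhesion receptors that let leukocytes roll on vessel walls. Their ligands are sugar chains, above all sialyl Lewis x, built on carrier proteins in the Golgi. For P-selectin the chain sits on a branched O-glycan of PSGL-1, the product of Selplg. Gcnt1 starts that branch, B4galt1 adds galactose to it, St3gal4 and St3gal6 cap it with sialic acid, and Fut7 and Fut4 add the fucose. Naive T cells carry few such chains and effector T cells gain them, with Fut7 known as a limiting enzyme of the last step.

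The sequenced cells were OT-I T cells, a transgenic line whose T cell receptor recognises SIINFEKL, a peptide of ovalbumin. In both groups they had been cultured with LXR-/- dendritic cells, grown from bone marrow and loaded with that peptide, and then sorted as CD8+ cells. The RGX-104 group (4 libraries) received 2 uM RGX-104, an agonist of the liver X receptors (LXR). The control group (4 libraries) received DMSO. Neither age nor number of mice is given.

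Library totals ran from 30642316 to 37714355 counts. No pair of libraries within a group agreed within counting noise (chi-square per degree of freedom 1.34 to 6.32; the lowest was RGX-104 libraries 2 and 3), so none were merged. Nothing in the labels says that libraries of a group came from separate cultures, so the spread behind the p-values may be technical only. The agonist's textbook target Abca1, a cholesterol exporter, averaged 125 ± 6.21 CPM (read counts scaled to a common library size) in RGX-104 libraries and 1.72 ± 0.295 CPM in control libraries (SD, n = 4 each). The 5 myeloid markers (Lyz2, Csf1r, Spi1, Tyrobp and Fcer1g) had at most 13 counts in any library. They summed to 0.495 to 0.744 CPM in RGX-104 and 0.458 to 0.649 CPM in control libraries. Of all 14 myeloid markers 4 were abundant enough to test and 0 were called by edgeR (1 at an unadjusted p under 0.05). That 1 was Zbtb46, a dendritic cell marker, at 3.77 CPM with RGX-104 and 2.91 CPM in control (edgeR adjusted p = 0.0552). Cd68 had the highest count of the 14, at 212. The 14 summed to 9.78 to 11.4 CPM in RGX-104 and 9.14 to 10.4 CPM in control libraries. The defining CD8 T cell markers were abundant, Cd8a averaging 809 CPM in RGX-104 and 877 CPM in control libraries. Of 7 such markers 4 were lower and 1 higher (edgeR adjusted p under 0.05), against 4.13% lower and 4.82% higher of all tested genes. The higher one was Lck, whose row may hold only part of its reads because the table has a further row for it. The 7 markers summed to 2252 to 2308 CPM in RGX-104 and 2390 to 2507 CPM in control libraries. The part of that shift in the results below was not tested.

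Fut7 was the gene of the set that differed most. It lies on chromosome 2 from 25422351 to 25426374 (GRCm38) and encodes fucosyltransferase VII, the enzyme that places fucose on sialylated chains. It had 6.80, 6.48, 6.06 and 6.91 CPM in the 4 RGX-104 libraries, against 2.47, 2.74, 2.65 and 2.99 CPM in the 4 control libraries. Every RGX-104 library lay far above every control library. These levels rest on 210, 229, 196 and 220 counts in RGX-104 libraries and on 86, 93, 96 and 111 counts in control libraries. The means were 6.56 ± 0.380 CPM and 2.71 ± 0.219 CPM (SD, n = 4 each), a log2 fold change of 1.27 ± 0.10 (SE) or 2.42-fold. In this bulk measurement more cells with the transcript and more transcript per cell cannot be told apart.

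The spread of Fut7 within a group was no wider than read counting gives, the variance between libraries being 0.705 of the counting variance with RGX-104 and 0.637 in control. Its log2 fold change was the 12th highest of 13290 tested genes. Fut7 was chosen with this contrast known, so that rank is a description only. Its level in CPM was modest, since 28.7% of the tested genes had a lower mean log2 CPM. That ranking is not corrected for exon length. Leaving out any 1 library gave log2 fold changes of 1.23 to 1.32.

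Sequence upstream of a Fut7 start is shown as a description, and its part in the difference was not tested. It is the stretch of 250 bases before the most upstream start that the RefSeq promoter table lists (GRCm38.p6, plus strand, chr2:25422992-25423241), written 5′ to 3′. The annotated span of the gene begins further upstream, so the window lies inside that span.
Fut7 upstream: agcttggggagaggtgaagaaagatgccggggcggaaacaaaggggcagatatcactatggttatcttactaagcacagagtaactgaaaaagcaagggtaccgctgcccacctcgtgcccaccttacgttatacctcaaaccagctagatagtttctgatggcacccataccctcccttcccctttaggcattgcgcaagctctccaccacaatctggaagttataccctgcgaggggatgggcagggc
No capitals appear in it because none of 3 searched motifs was found. The motifs were AGGTCA, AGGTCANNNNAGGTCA and AGGTGTGA. AGGTCA is a single copy of the core that nuclear receptor elements usually hold as a pair. The second motif is such a pair at the spacing known for LXR with RXR. AGGTGTGA is only part of the T-box palindrome. Both strands were read, and the first motif is part of the second. They occur in 16.3%, 0.0152% and 1.28% of 32851 promoters of 300 bases in the table, and in 0 of the 10 promoters listed for 6 of the genes. Selplg had no entry. No match says only that these letters are not in those windows.

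Fut4, on chromosome 9 from 14748459 to 14752122, encodes the other fucosyltransferase known to act in leukocyte selectin ligands. It had 5.79, 5.35, 5.35 and 6.03 CPM with RGX-104, against 5.05, 5.10, 4.55 and 5.18 CPM in control. The groups did not overlap, but their nearest values were 5.35 and 5.18 CPM. The log2 fold change was 0.18 ± 0.09 (SE). Within a library, the ratio of Fut7 to Fut4 per kb of exon does not depend on library scaling. It was 2.03, 2.1, 1.96 and 1.98 with RGX-104, against 0.845, 0.930, 1.01 and 1.00 in control, so Fut7 stood at about the level of Fut4 in control libraries and above it in every RGX-104 library.

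Gcnt1, on chromosome 19 from 17326141 to 17372844, opens the O-glycan branch that carries the ligand. It had 4.86, 4.22, 4.42 and 5.03 CPM with RGX-104, against 3.76, 4.36, 4.91 and 4.15 CPM in control. The values of the groups interleaved, and the log2 fold change was 0.11 ± 0.10 (SE).

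The sialyltransferases differed least. St3gal4, on chromosome 9 from 35046576 to 35116864, had 45.9, 47.5, 47.6 and 44.6 CPM with RGX-104, against 46.5, 46.1, 47.5 and 47.1 CPM in control. Its log2 fold change was -0.01 ± 0.04 (SE), and the RGX-104 range enclosed the control range. St3gal6, on chromosome 16 from 58469742 to 58524260, had 8.42, 9.39, 8.35 and 8.70 CPM with RGX-104, against 8.12, 8.67, 8.66 and 8.71 CPM in control. Its groups overlapped too, with a log2 fold change of 0.03 ± 0.07 (SE). The noncoding gene 4930581F22Rik shares only the stretch from 35116728 to 35116864 with St3gal4. Dcbld2 shares only 58469742 to 58469745 with St3gal6. Because the strand setting of the counting is not given, reads inside these short stretches cannot be told apart. Neither overlapping gene was called (edgeR adjusted p = 0.137 for 4930581F22Rik and 0.0604 for Dcbld2).

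B4galt1 and Selplg were the abundant genes of the set, and both were slightly higher. B4galt1, on chromosome 4 from 40804602 to 40853984, had 186, 203, 200 and 195 CPM with RGX-104, against 173, 182, 191 and 183 CPM in control. RGX-104 library 1 lay below control library 3, so the groups overlapped, and the log2 fold change was 0.10 ± 0.03 (SE). Selplg, on chromosome 5 from 113817798 to 113832528, had 424, 454, 450 and 429 CPM with RGX-104, against 415, 409, 422 and 404 CPM in control. The groups were apart by a small margin, 424 against 422 CPM, with a log2 fold change of 0.09 ± 0.03 (SE). At this depth the libraries of a group spread well beyond counting error in both genes. The variance between libraries was 8.77 times the counting variance with RGX-104 and 10 times in control for B4galt1, and 16.0 and 5.46 times for Selplg.

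**Figure D1:**
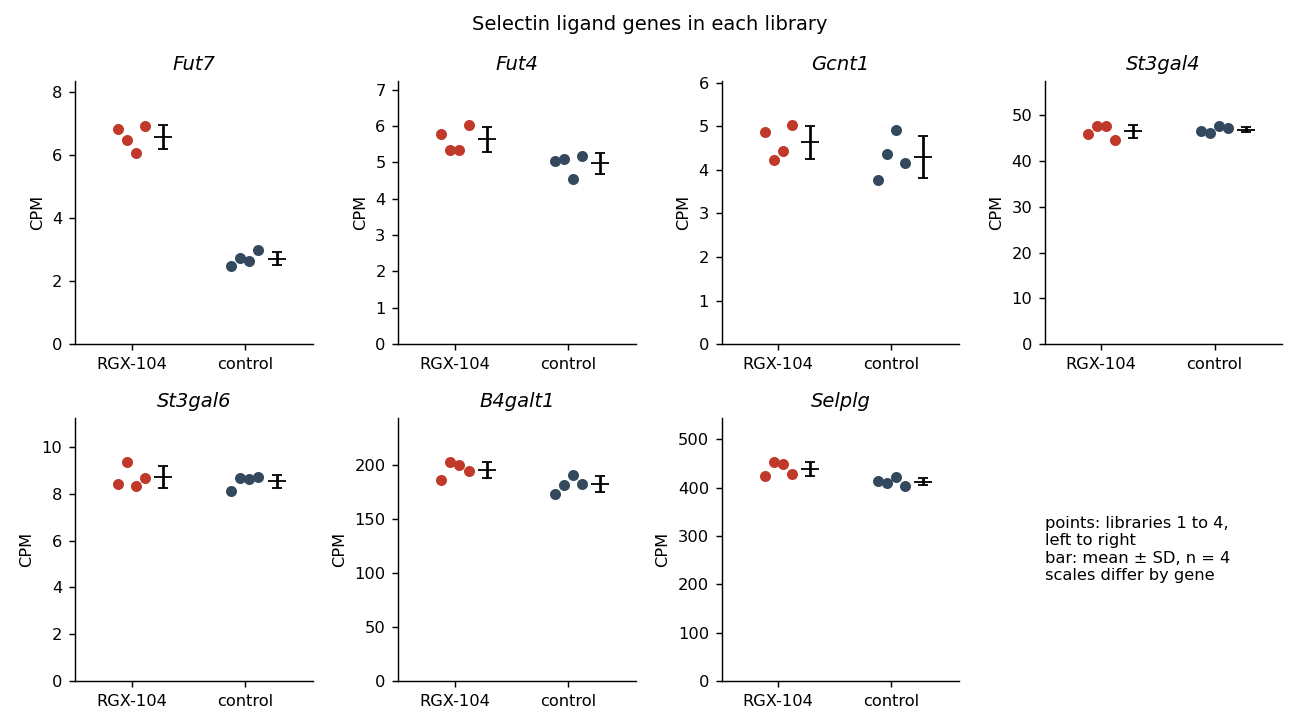
CPM of the 7 genes in each library, RGX-104 on the left of each panel and control on the right, with points in order of library number and the mean ± SD (n = 4) beside them; each vertical axis starts at 0 and has its own scale. Fut7 is the gene whose groups lie far apart, at 6.06 to 6.91 CPM with RGX-104 and 2.47 to 2.99 CPM in control.

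Past the edgeR threshold (adjusted p under 0.05 over all tested genes) were 3 of the 7, all higher, namely Fut7, B4galt1 and Selplg. Over all 13290 tested genes the share past it was 8.95%, with 4.82% higher and 4.13% lower. Groups did not overlap for 3 of the 7 (Fut7, Fut4 and Selplg), against 14.5% of all tested genes. The median log2 fold change of the 7 was 0.10, against 0.00 for all tested genes. B4galt1 and Selplg were near the threshold. Neither was past it without control library 2 or 4 or RGX-104 library 2 or 3, which gave log2 fold changes of 0.08 to 0.10 for B4galt1 and 0.08 to 0.09 for Selplg. B4galt1 was also not past it without control library 1 (0.08) or RGX-104 library 4 (0.11), nor Selplg without control library 3 (0.10).

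Levels between genes were compared per kb of exon. In RGX-104 libraries Selplg was highest at 103 ± 3.44 CPM per kb, followed by B4galt1 at 46.3 ± 1.72 and St3gal4 at 15.9 ± 0.484 (SD, n = 4). Fut7 was next at 2.79 ± 0.161 CPM per kb, followed by St3gal6 at 1.41 ± 0.0772, Fut4 at 1.38 ± 0.0833 and Gcnt1 at 0.804 ± 0.0651. In control libraries Selplg (96.6 ± 1.84 CPM per kb), B4galt1 (43.1 ± 1.70) and St3gal4 (16.0 ± 0.205) led as well. Below them stood St3gal6 (1.38 ± 0.0457), Fut4 (1.22 ± 0.0693), Fut7 (1.15 ± 0.0929) and Gcnt1 (0.746 ± 0.0835). Neighbours whose ranges over 4 libraries overlapped were St3gal6 and Fut4 with RGX-104, and Fut4 and Fut7 in control, and all other neighbours were apart. The carrier transcript thus stood far above those of the enzymes that start the branch and add the fucose, in both groups.

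The order depends in part on the length used. With the longest annotated transcript in place of all exons, Selplg had 190 CPM per kb with RGX-104 and 178 in control, and St3gal6 had 2.11 and 2.07. In control libraries Fut7 (1.31 CPM per kb) then came above Fut4 (1.22), still with overlapping ranges.

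**Figure D2:**
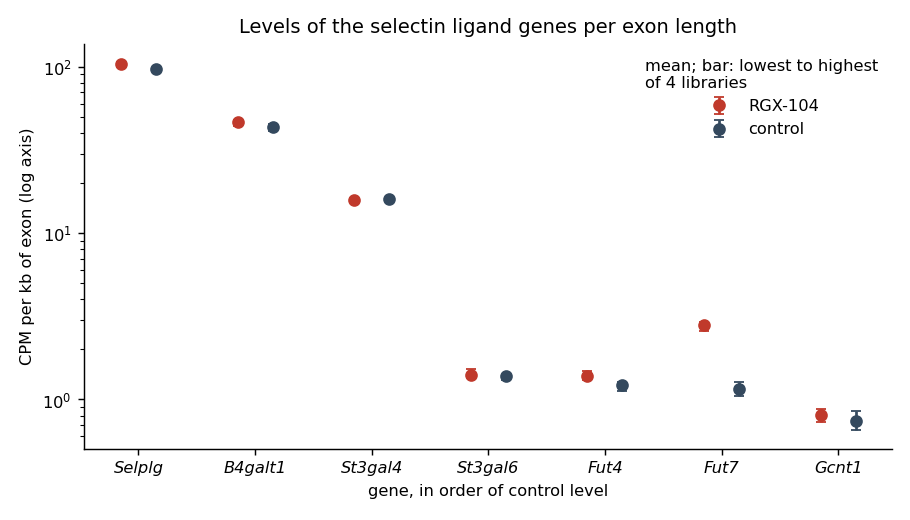
Mean CPM per kb of exon of the 7 genes (log axis), RGX-104 left of control, ordered by control level, with bars from the lowest to the highest of 4 libraries. Fut7 stands at 1.15 CPM per kb in control, beside Fut4, and at 2.79 with RGX-104, above St3gal6 and Fut4.

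The other steps of the pathway were read from 10 lists of textbook genes with 101 members. Of these 82 passed the filter on counts and were tested, 13 were higher and 3 lower (edgeR adjusted p under 0.05). That is 19.5%, against 8.95% of all tested genes. The lists were drawn up with earlier results of these data known, and no test of them as sets was made. Their median log2 fold change was 0.03. With 1 surrogate variable the counts were 8 higher and 1 lower, where 425 of all 13290 tested genes were higher and 365 lower.

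Among galactosyltransferases and chain-extending enzymes 3 of 8 tested were higher and 0 lower. Over all tested genes 4.82% were higher and 4.13% lower, and these shares also apply to the lists that follow. B4galt5, a galactosyltransferase best known for lactosylceramide synthesis, had 233, 238, 243 and 238 CPM with RGX-104, against 168, 172, 171 and 175 CPM in control. Its groups were widely apart relative to their spread, with a log2 fold change of 0.47 ± 0.03 (SE; edgeR adjusted p = 1.37e-12). B4galt7, which acts in the linker of proteoglycans, rose by 0.22 ± 0.04 (log2, SE). B3gnt5, which starts lacto-series glycolipids, rose by 0.34 ± 0.09. B4galt7 and B3gnt5 are not known for extending the PSGL-1 branch. B3gnt2, a main polylactosamine enzyme, was at 101 CPM with RGX-104 and 97.8 CPM in control without a call (edgeR adjusted p = 0.459).

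Of 16 tested genes of O-glycan initiation, core formation and capping, 3 were higher and 1 lower. Galnt3, which starts O-glycans by attaching GalNAc, rose by 0.40 ± 0.04 (log2, SE), to 45.8 ± 1.05 CPM with RGX-104, against 34.6 ± 1.99 CPM in control (SD, n = 4 each; edgeR adjusted p = 1.03e-07). Gcnt4, a relative of Gcnt1 with the same kind of branching activity, rose by 0.35 ± 0.11, with 5.15 to 7.09 CPM with RGX-104, against 4.03 to 5.44 CPM in control. Those ranges overlapped. C1galt1, the core enzyme on which the branch depends, was at 40.7 and 40.5 CPM (edgeR adjusted p = 0.947). Sialyltransferases beside St3gal4 and St3gal6 were higher in 1 of 8 tested and lower in 0. That was St6gal1, whose linkage is not part of sialyl Lewis x, at 68.4 ± 6.38 CPM with RGX-104 and 53.3 ± 3.79 CPM in control (log2 fold change 0.36 ± 0.07, SE; edgeR adjusted p = 0.0153). St3gal1, known to compete with Gcnt1 for the same core, was at 51.9 and 51.1 CPM (edgeR adjusted p = 0.764).

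Some of these calls lay near the threshold and were lost when 1 library was left out, with fold changes of similar size. St6gal1 was not called without RGX-104 library 3 (0.35, edgeR adjusted p = 0.0556; range over its 15 alternatives 3.89e-14 to 0.0981). Gcnt4 was not called without control library 2 (0.33) or 3 (0.28) or RGX-104 library 1 (0.27) or 4 (0.33). B3gnt5 was not called without control library 2 (0.31) or 3 (0.33) or RGX-104 library 2 (0.34) or 3 (0.26). Chst2, named below, was not called without control library 2, 3 or 4 or RGX-104 library 1, 3 or 4 (0.13 to 0.16). Mgat4b was not called without control library 1, 3 or 4 or RGX-104 library 2, 3 or 4 (-0.30 to -0.21).

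Genes that supply the fucose donor were not called. The GDP-fucose genes gave log2 fold changes of -0.06 for Gmds, -0.04 for Gfus, 0.07 for Fcsk, -0.07 for Fpgt and -0.07 for the transporter Slc35c1, and none of these 5 was called. Other fucosyltransferases were called in 0 of 5 tested by edgeR, with 1 at an unadjusted p under 0.05. That 1 was Fut10, on 14 to 50 counts a library, with a log2 fold change of -0.62 ± 0.23 (SE; edgeR adjusted p = 0.1). Fut8, which fucosylates the core of N-glycans, was at 24 CPM with RGX-104 and 23.5 CPM in control (edgeR adjusted p = 0.739). Fut9, which also makes Lewis x structures, had 0 counts in every library, where 3 counts in the smallest library would be 0.0979 CPM.

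Sulfation and N-glycan genes showed small differences. Tyrosine sulfation of PSGL-1 is the work of Tpst1 and Tpst2, which were at 32.9 and 56.5 CPM with RGX-104 and at 31.7 and 60.1 CPM in control (edgeR adjusted p = 0.536 and 0.131). Chst2, a sulfotransferase of carbohydrate chains, rose by 0.16 ± 0.05 (log2, SE; edgeR adjusted p = 0.0294) as the 1 called of 7 tested. Of 10 tested N-glycan genes 2 were higher and 1 lower. Mgat1 rose by 0.12 ± 0.03 and Mgat5 by 0.16 ± 0.04 (log2, SE; edgeR adjusted p = 0.00666 and 0.013). Mgat4b, a branching enzyme, fell by 0.28 on the log2 scale (edgeR adjusted p = 0.0435). Sialidase and fucosidase genes were called in 0 of 3 tested by edgeR, with 0 at an unadjusted p under 0.05. The sialidase gene Neu1 had 0 counts in every library and was not tested. The count table holds a further row for Neu1 under a numbered name, which was not examined, so its level is not known here.

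Most other carriers of selectin ligands were not called. Cd44 was at 238 CPM with RGX-104 and 235 CPM in control, Spn (CD43) at 315 and 322 CPM, and Glg1 (ESL-1) at 238 and 238 CPM (edgeR adjusted p = 0.693, 0.523 and 0.964). The 1 called of 7 tested was Lamp1, a lysosomal protein that can bear such chains at the surface, at 122 ± 4.23 CPM with RGX-104 and 144 ± 8.50 CPM in control (edgeR adjusted p = 0.000119).

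Selp, which encodes P-selectin, a receptor for PSGL-1 best known on endothelium and platelets, had 11.9, 10.8, 10.1 and 10.2 CPM with RGX-104, against 7.03, 7.69, 7.06 and 8.01 CPM in control. It rose by 0.53 ± 0.07 (log2, SE; edgeR adjusted p = 1.59e-05), with groups apart. It lies on chromosome 1 from 164115264 to 164150026. Sele, which encodes E-selectin, had at most 9 counts and was not tested.

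**Figure D3:**
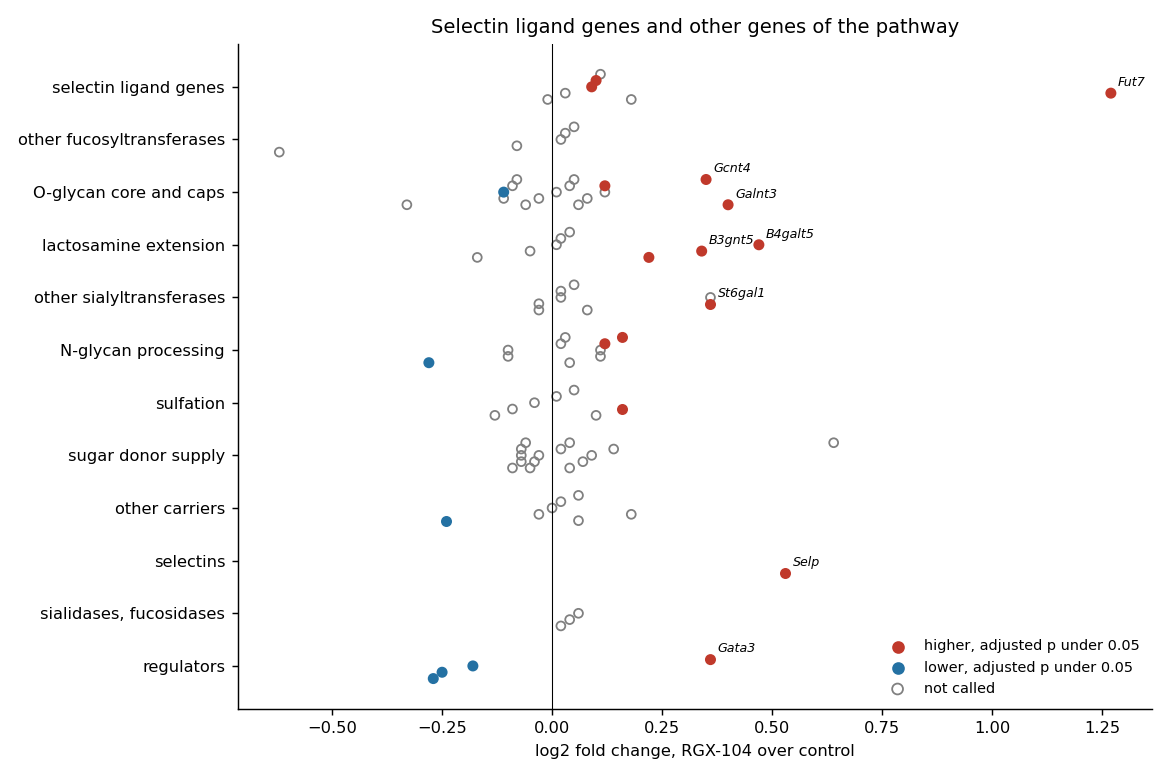
Log2 fold change, RGX-104 over control, of tested genes of each list (points, spread vertically for legibility), with genes called higher in red, called lower in blue and the others open; called genes beyond 0.3 are named, and 2 genes are not drawn. Fut7 lies at 1.27, far to the right of the other points, of which Selp at 0.53 and B4galt5 at 0.47 are the highest called ones.

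Known regulators of these genes in T cells were described too, with results already known from earlier work on these data. T-bet (Tbx21) and the IL-12 pathway through Stat4 are known to favour Fut7 and Gcnt1, and GATA-3 (Gata3) to oppose FUT7 in human CD4 T cells. Tbx21 was at 139 ± 5.77 CPM with RGX-104 and 168 ± 7.66 CPM in control, Il12rb2 at 418 ± 14.4 and 498 ± 12.7 CPM, and Stat4 at 218 ± 6.64 and 246 ± 8.31 CPM (SD, n = 4 each). Gata3 was at 13.1 ± 1.18 CPM with RGX-104 and 10.2 ± 0.842 CPM in control. The groups did not overlap in any of these 4 (edgeR adjusted p of 0.00132 or below). Over all tested genes, groups did not overlap in 14.5%, and 8.95% were called. Il12rb2 overlaps Serbp1 and LOC115490490, and Stat4 overlaps Gm31812, so the counts of both are uncertain. The directions were thus lower for Tbx21, Il12rb2 and Stat4 and higher for Gata3, while Fut7 was higher. The part of these regulators in the level of Fut7 was not tested.

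Genes beside Fut7 were examined as well. No tested gene overlaps Fut7, and the nearest tested gene, Abca2, begins 2224 bases beyond its end. Abca2, a lipid transporter gene, had 196, 216, 214 and 205 CPM with RGX-104, against 174, 183, 168 and 151 CPM in control (log2 fold change 0.30 ± 0.06, SE; edgeR adjusted p = 0.00694). Npdc1, a gene known from neural cells that ends 12856 bases before Fut7, had 3.75, 3.82, 3.74 and 3.17 CPM with RGX-104, against 3.15, 1.80, 2.01 and 2.32 CPM in control (0.64 ± 0.14; edgeR adjusted p = 0.00341). Both neighbours were higher with groups apart, although RGX-104 library 4 and control library 1 nearly met in Npdc1. Within 100 kb on either side, a window chosen after the values were seen, 3 of 14 other tested genes were higher (Abca2, Npdc1 and Dpp7) and 0 lower, where 4.82% of all tested genes were higher and 4.13% lower. The median log2 fold change of the 14 was 0.19. The part of neighbouring transcription in the counts of Fut7 was not tested. Of 14 tested neighbours of the other 6 genes, flanking or overlapping, 1 was called, a share of 7.14% against 8.95% of all tested genes. It was Cpox near St3gal6, at 153 ± 1.49 CPM with RGX-104 and 186 ± 8.47 CPM in control.

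**Figure D4:**
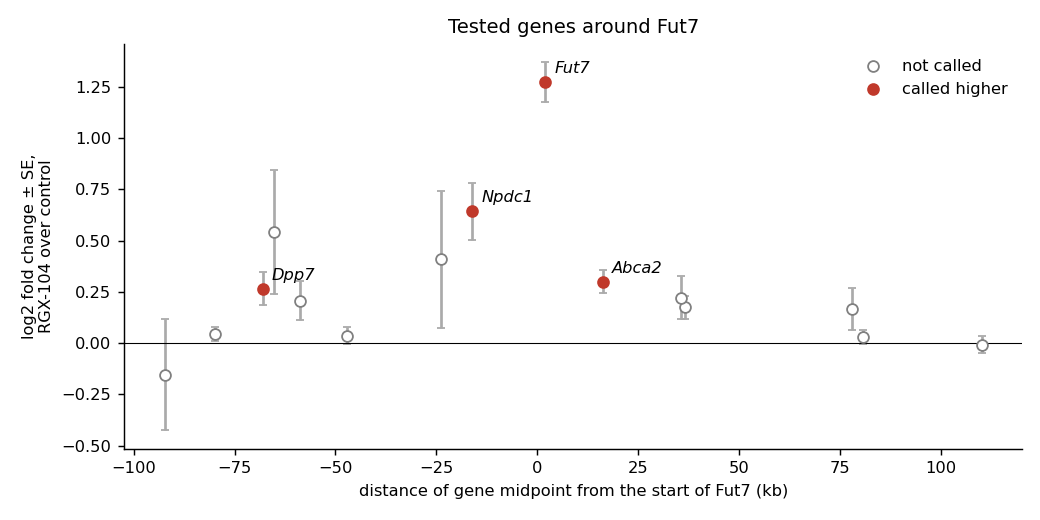
Log2 fold change ± SE, RGX-104 over control, of tested genes within 100 kb of Fut7, by distance of the gene's midpoint from the start of Fut7 in kb; filled points were called higher. Fut7 is highest at 1.27, with Npdc1 at 0.64 and Abca2 at 0.30 on its sides.

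The genes whose log2 CPM followed Fut7 most closely over the 8 libraries, among 9674 protein-coding genes, were Lmna (Pearson r = 0.9985), Gcat (0.9939), Vim (0.9926), B4galt5 (0.9902) and Acsl3 (0.9889). The libraries form 2 treatment groups, so these values mainly state that both genes of a pair separate the groups with little spread inside them. Lmna, which encodes lamin A and C of the nuclear envelope, had 23.4 to 24.9 CPM with RGX-104, against 10.4 to 12.5 CPM in control. Vim, encoding the intermediate filament protein vimentin, had 503 to 531 CPM with RGX-104, against 227 to 246 CPM in control, so that both changed by a size near that of Fut7. Gcat and Acsl3 changed less, by 0.31 and 0.66 on the log2 scale. Acsl3 overlaps Utp14b, which was called higher as well, and Gcat overlaps Galr3, which was not called, so the counts of both are uncertain.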

How the data were processed

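RNA sequencing of 8 libraries of sorted T cells was available as 1 table in which the authors deposited whole-number read counts per gene, without normalization. Reads had been handled with STAR 2.7.5 and cutadapt 2.10 on GRCm38, and DESeq2 1.4 and R 4.1.0 are listed too, per the submitters' processing notes. How reads were assigned to genes, with which annotation and strand, is not given in the sources used here. Control columns matched numbered samples, whereas RGX-104 columns showed only their group, so those libraries are numbered by column. All columns were used.

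With edgeR 4.0.16 in R 4.3.3, filterByExpr (minimum count 10, total 15) kept 13290 of 41730 genes. A robust quasi-likelihood F-test with TMM scaling and treatment as the only term was fitted to all of them, with Benjamini-Hochberg adjustment (threshold 0.05). CPM used TMM-scaled library sizes, and standard errors came from the F statistic. Exon lengths were from GENCODE M21 and coordinates from RefSeq GRCm38.p6. List symbols Tsta3 and Fuk were read as Gfus and Fcsk. For Neu1, St6gal2, Man1a2 and Lck the table also holds a row with a numbered suffix, which was not added to their counts.

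Genes named were the 7 of the set, the 12 largest called (2 of which are not reported here, though counted in the pathway totals) and 9 preset genes of the pathway lists, 4 regulators, neighbours, Abca1, and the 5 most like Fut7. Further examples were picked with their values in view. The 7 genes, lists and tests were chosen with earlier results of these data known. Alternatives were DESeq2 1.42.0, limma-voom (limma 3.58.1), other scalings and filters, 1 surrogate variable (sva 3.50.0) and leaving out each library.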

Additional observations from a re-analysis of the deposited data

Results flagged for a closer look

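Each named gene was screened in both groups of 4 libraries for a value standing apart. That gave 3 such values in 78 checks, and chance alone gives about 3.90. St3gal6 was at 8.12 CPM in control library 1, against 8.66 to 8.71 in the other control libraries. Spn was at 307 CPM in RGX-104 library 1, against 317 to 318 in the other RGX-104 libraries. Npdc1 was at 3.17 CPM in RGX-104 library 4, against 3.74 to 3.82 in the other RGX-104 libraries.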

How the results depend on the processing

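No paired analysis was possible because the labels number control samples 1 to 4 and RGX-104 samples 5 to 8, and the RGX-104 columns could be matched to no single sample, so whether libraries are paired is unknown. With 1 surrogate variable, 425 genes were higher and 365 lower over the whole table, and 8 and 1 among the other pathway genes. Upper quartile scaling gave 752 higher and 438 lower over the table (63.2% of calls higher, against 53.8%), and left 1 pathway gene lower. Leaving out each library gave 462 to 719 genes higher and 377 to 621 lower over the table, 10 to 14 higher and 1 to 2 lower in the pathway, and 1 to 3 of the 7 selectin ligand genes past the threshold. The 7 log2 fold changes moved by less than the spread between libraries in all 15 alternatives, Fut7 at 1.23 to 1.34, while St3gal4 (0.01 without RGX-104 library 4) and St3gal6 (-0.01 without RGX-104 library 2) changed sign near 0. Selplg was not past the threshold with no filter or with 1 surrogate variable. Of 480 values of the other 32 named genes, 443 kept direction and side of the threshold, 29 lost a call and 8 changed sign. The sign changes were in uncalled genes near 0. C1galt1 ran from -0.04 to 0.04 with 1 library left out, below 0 without control library 1 or 3 or RGX-104 library 3 (-0.00). Glg1 was -0.03 with 1 surrogate variable, -0.00 with no filter, and -0.02 to 0.03 with 1 library left out, below 0 without control library 4 or RGX-104 library 2 (-0.01) or 3. With 1 surrogate variable St6gal1, Gcnt4, B3gnt5, Chst2 and Mgat4b were not called, and with DESeq2 Chst2 and Mgat4b were not, nor Mgat4b with upper quartile scaling. The cause was not tested. With the longest transcript, CPM per kb over the 8 libraries was 2.23 for Fut7, 0.969 for Gcnt1, 22.2 for St3gal4, 2.09 for St3gal6, 47.5 for B4galt1 and 184 for Selplg. Depth limits Fut7, Fut4 and Gcnt1 most, which rest on 86 to 229 counts a library.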
